A study of Drosophila melanogaster with 8 samples.

Results

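The genes described here carry or control the localized messages of the Drosophila oocyte. They comprise the messages osk, nos (nanos in the current annotation), bcd and grk, the translational regulator orb, and the localization factors stau, exu, swa, BicD and egl. They were chosen by name, as the probe sets annotated to a single gene whose symbol or synonym is among these 10. All 10 genes were measured, by 14 of the 13647 probe sets annotated to 1 gene, which stand for 10 of 11983 genes. The nitric oxide synthase gene Nos shares the synonym nos and was left out, since it encodes no oocyte message. Expression was measured on 8 Affymetrix Drosophila Genome 2.0 arrays, each with RNA of 8 pooled whole females of SZ, a composite of the 6 Zimbabwe (Z) lines ZS2, ZS11, ZS53, ZS56, ZH12 and ZH32. Females were virgin and 7 days past eclosion before the experiment, and were frozen 30 minutes after copulation ended. The mates on 4 arrays were SZ males (ZxZ), and on 4 they were males of the cosmopolitan (M strain) population LHM (ZxM). Both groups were mated, and no unmated females are compared here. The comparison asks how gene expression of Z females differs after mating with males of their own, preferred strain and after mating with less preferred M males.

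In the Drosophila ovary, nurse cells transcribe messages that are carried into the oocyte along microtubules. Egl binds the messages and, with BicD, links them to the dynein motor. Inside the oocyte, osk message moves to the posterior pole with Stau, bcd message is held at the anterior pole with the help of Exu, Swa and Stau, and grk message collects beside the oocyte nucleus. These messages stay silent until their protein is needed. Orb, a protein of the CPEB family that binds cytoplasmic polyadenylation elements, promotes the polyadenylation and translation of some of them. Osk assembles the pole plasm, where germ cells later form, and nanos message is translated there.

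Of the 10 genes, orb and stau were lower after the ZxZ mating than after the ZxM mating (limma, 10% FDR), and none was higher. Both differed by -0.23 on the log2 scale, which is 1.17-fold lower in ZxZ. The test covers the 5991 genes with the larger interquartile range over the 8 arrays, and 9 of the 10 genes passed this filter (nanos did not). Of the 9, 2 were lower and 7 did not pass the test, against 17.6% of all tested genes that were lower and 1.1% that were higher. A count of 2 of 9 is therefore close to the background. Over all 10 genes, with no filter, 8 had a negative difference, as had 62.5% of all 11983 genes, and the median was -0.043 on the log2 scale, against -0.033 for all genes. Without the filter limma called 0 of the 10 genes and 0 of all 11983 genes at 10% FDR, with 2 of the 10 genes (orb and stau) and 21.1% of all genes at an unadjusted p under 0.05. The smallest adjusted p of the 10 genes was then 0.144. For none of the 14 probe sets did the ZxZ and ZxM arrays separate fully, while 8.01% of all probe sets with 1 gene lay fully lower in ZxZ and 1.56% fully higher (12.1% and 1.02% of the tested genes).

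**Figure D1:**
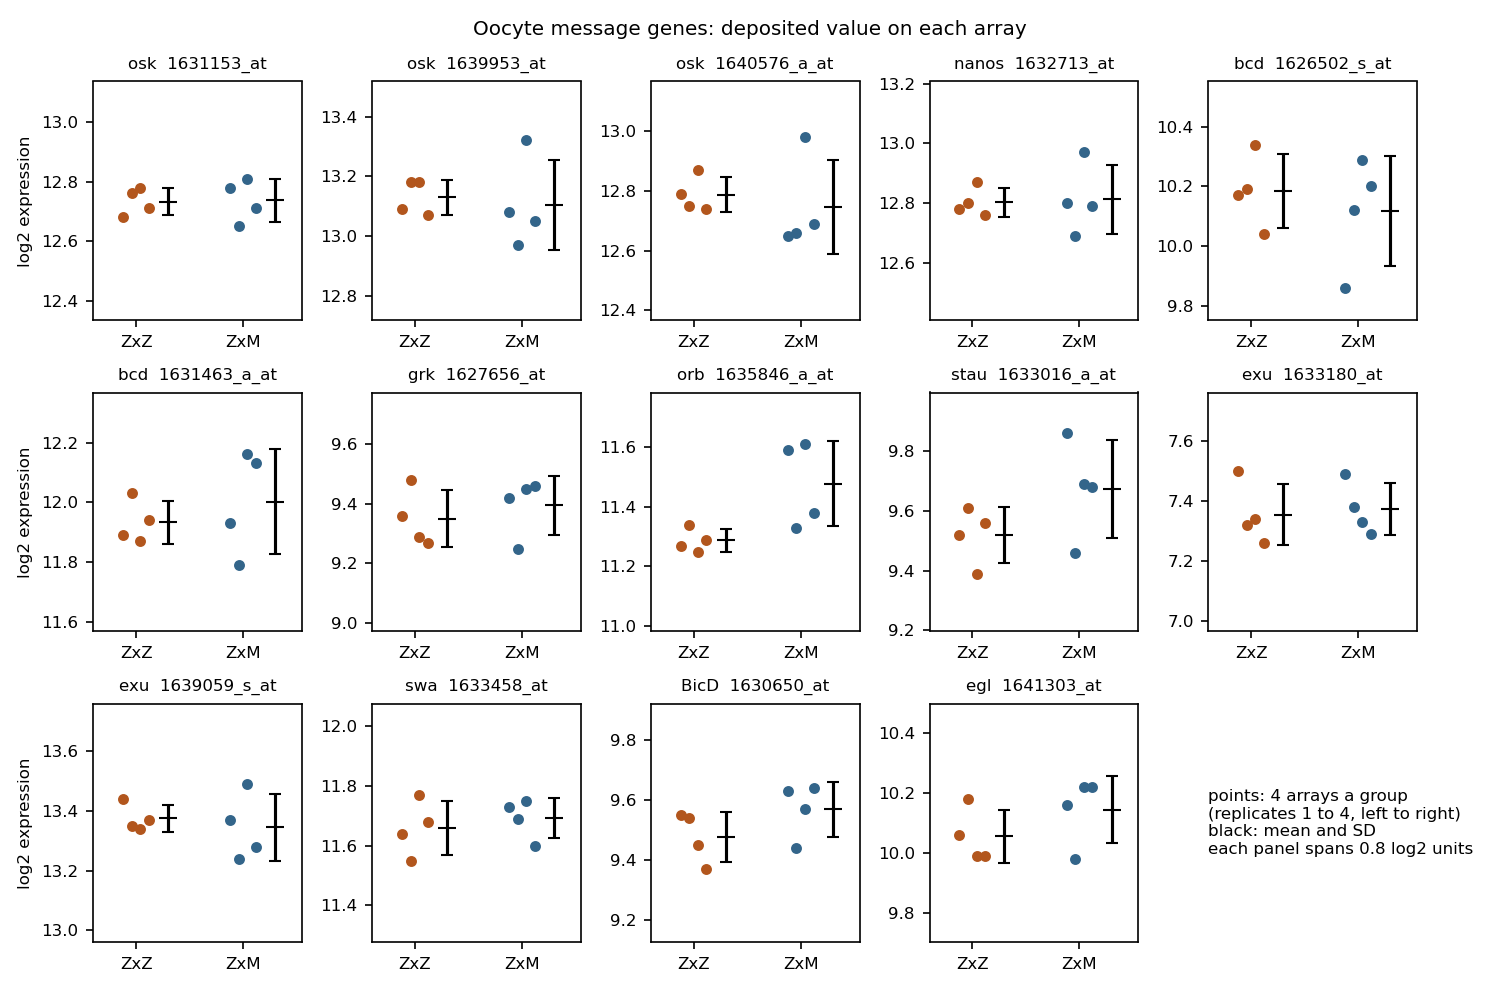
Deposited log2 expression (vertical axis) of the 14 probe sets on each array, with the 4 ZxZ arrays to the left of the 4 ZxM arrays in every panel, points in the order of replicates 1 to 4, and the mean and SD in black. The ZxM points of orb lie between 11.33 and 11.61, mostly above the ZxZ points between 11.25 and 11.34, whereas those of osk and nanos spread around the ZxZ points.

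The message genes differed little between the matings. The message osk encodes the organizer of the pole plasm and was read by 3 probe sets. The most variable of them, which stood for the gene in the test, was at 12.79, 12.75, 12.87 and 12.74 on ZxZ replicates 1 to 4, against 12.65, 12.66, 12.98 and 12.69 on ZxM replicates 1 to 4. ZxM replicate 3 was the highest array and the other three ZxM arrays were the lowest of all, so the ZxZ values lie inside the range of ZxM. The log2 difference was 0.07 (95% confidence interval -0.0845 to 0.234, adjusted p = 0.45 from limma). The other osk probe sets averaged 12.73 ± 0.045 and 13.13 ± 0.0593 in ZxZ (SD, n = 4), against 12.74 ± 0.0715 and 13.1 ± 0.149 in ZxM (SD, n = 4). Their differences in a fit over all probe sets with 1 gene were -0.0032 and 0.045 on the log2 scale.

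The nanos message, whose protein represses translation in the posterior of the embryo and maintains germline stem cells, was at 12.78, 12.8, 12.87 and 12.76 on the ZxZ arrays and at 12.8, 12.69, 12.97 and 12.79 on the ZxM arrays. Again ZxM replicate 3 was the highest and ZxM replicate 2 the lowest array, with all ZxZ values between them. The difference was -0.0015 on the log2 scale in the fit over all 11983 genes (95% confidence interval -0.115 to 0.112, adjusted p = 0.99 from limma).

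The anterior determinant bcd, a homeodomain protein, was read by 2 probe sets that differed in sign. The one that stood for the gene was at 10.17, 10.19, 10.34 and 10.04 in ZxZ, against 9.86, 10.12, 10.29 and 10.2 in ZxM, a difference of 0.14 (95% confidence interval -0.0857 to 0.356, adjusted p = 0.329 from limma). Here ZxM replicate 1 was the lowest array, and the groups overlap. The other probe set was at 11.89, 12.03, 11.87 and 11.94 in ZxZ, against 11.93, 11.79, 12.16 and 12.13 in ZxM, with a difference of -0.084 (95% confidence interval -0.238 to 0.0705) over all probe sets with 1 gene. On this one ZxM replicates 3 and 4 were above every ZxZ array and ZxM replicate 2 was below them, so that neither probe set passed the test over all 8 arrays. The value of the gene rested on single arrays: without ZxM replicate 4 bcd was called higher in ZxZ (0.26, adjusted p = 0.0687 from limma), and without ZxM replicate 1 its difference was -0.00234 (adjusted p = 0.984 from limma). Without ZxM replicate 4, 352 of all 5991 tested genes were called higher, against 66 with all 8 arrays.

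The message of grk, a TGF-alpha-like ligand that signals from the oocyte to the follicle cells, was at 9.36, 9.48, 9.29 and 9.27 in ZxZ, against 9.42, 9.25, 9.45 and 9.46 in ZxM. ZxM replicates 1, 3 and 4 were close together and ZxM replicate 2 lay below all others. The log2 difference was -0.08 (95% confidence interval -0.21 to 0.051, adjusted p = 0.331 from limma).

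The translational regulator orb was at 11.27, 11.34, 11.25 and 11.29 on ZxZ replicates 1 to 4, against 11.59, 11.33, 11.61 and 11.38 on ZxM replicates 1 to 4. The ZxZ arrays were close to each other, ZxM replicates 1, 3 and 4 were above all of them, and ZxM replicate 2 lay among them. The means were 11.29 ± 0.0397 in ZxZ and 11.48 ± 0.142 in ZxM (SD, n = 4 each), and the weighted log2 difference was -0.23 (SE 0.0647, 95% confidence interval -0.372 to -0.0869, adjusted p = 0.0874 from limma). An exact permutation test of orb alone gave p = 0.0571 (two-sided, unadjusted), where the smallest p that 4 arrays against 4 allow is 0.0286. The limma estimate weights each array by how well it follows the model, and ZxM replicate 1 had the largest weight (1.75) and ZxM replicate 2 the smallest (0.505). With equal weights orb differed by -0.191 (adjusted p = 0.199 from limma). Without ZxM replicate 1 its difference was -0.123 and without ZxM replicate 3 it was -0.152, with adjusted p of 0.233 and 0.254 from limma. In both runs and with equal weights, limma called 0 of all 5991 tested genes.

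The localization factor stau, a double-stranded RNA-binding protein that travels with osk and bcd messages, was at 9.52, 9.61, 9.39 and 9.56 in ZxZ, against 9.86, 9.46, 9.69 and 9.68 in ZxM. As for orb, ZxM replicates 1, 3 and 4 were above all ZxZ arrays and ZxM replicate 2 was not, and ZxZ replicate 3 was the lowest array. The means were 9.52 ± 0.0924 in ZxZ and 9.67 ± 0.162 in ZxM (SD, n = 4 each). The weighted log2 difference was -0.23 (SE 0.078, 95% confidence interval -0.402 to -0.0584, adjusted p = 0.0936 from limma), while with equal weights it was -0.152 (adjusted p = 0.27 from limma). The exact permutation p of stau alone was 0.171 (two-sided, unadjusted). Without ZxM replicate 1, on which stau was highest, the difference was -0.144 (adjusted p = 0.226 from limma). In that run and with equal weights, limma called 0 of all 5991 tested genes.

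The dynein adaptors did not pass the test. BicD was at 9.55, 9.54, 9.45 and 9.37 in ZxZ, against 9.63, 9.44, 9.57 and 9.64 in ZxM, with ZxM replicates 1, 3 and 4 again above all ZxZ arrays. Its difference was -0.13 (95% confidence interval -0.257 to -0.00179, adjusted p = 0.139 from limma). Its partner egl was at 10.06, 10.18, 9.99 and 9.99 in ZxZ, against 10.16, 9.98, 10.22 and 10.22 in ZxM, and differed by -0.12 (95% confidence interval -0.257 to 0.00897, adjusted p = 0.165 from limma). For egl, ZxM replicates 3 and 4 were above all ZxZ arrays and ZxM replicate 2 was below them. Without any 1 of the arrays ZxZ replicate 1, ZxZ replicate 2 and ZxM replicate 2, limma called both BicD and egl lower in ZxZ, and without ZxM replicate 4 it called BicD lower but not egl, and bcd higher. Of all 5991 tested genes, 2284, 1828, 1903 and 2492 were called lower in these runs in the order named, against 1057 with all 8 arrays. Without ZxM replicate 4, 352 were called higher.

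The anterior factors exu and swa showed no difference beyond the spread of the arrays. Swa, which helps to keep bcd message at the anterior pole, was at 11.64, 11.55, 11.77 and 11.68 in ZxZ, against 11.73, 11.69, 11.75 and 11.6 in ZxM. The groups overlap on nearly their whole range, with a log2 difference of -0.01 (95% confidence interval -0.145 to 0.117, adjusted p = 0.871 from limma). Exu, a component of bcd particles in the nurse cells, was read by 2 probe sets. The more variable one, which stood for the gene, was at 7.5, 7.32, 7.34 and 7.26 in ZxZ, against 7.49, 7.38, 7.33 and 7.29 in ZxM. These values are close to the median of all probe sets on the arrays, 7.27 to 7.31 in ZxZ and 7.23 to 7.29 in ZxM, where a low level cannot be told from no expression. Its log2 difference was -0.05 (95% confidence interval -0.191 to 0.0974, adjusted p = 0.606 from limma). The other exu probe set was bright, at 13.44, 13.35, 13.34 and 13.37 in ZxZ, against 13.37, 13.24, 13.49 and 13.28 in ZxM, with a difference of 0.033 (95% confidence interval -0.0784 to 0.145) over all probe sets with 1 gene. Neither exu probe set therefore differed beyond its interval, and the bright one has the narrower interval.

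Within the ZxM group, 2 arrays stood at the edges of the 14 probe sets. ZxM replicate 3 was the highest array for 8 of the 14 and ZxM replicate 2 the lowest for 7. Over the 1195 probe sets with 1 gene and a mean of at least 11, ZxM replicate 3 was the highest for 61.8% and ZxM replicate 2 the lowest for 20.6%, and over all 13647 it was 28.2% and 9.31%. The SD was larger in ZxM than in ZxZ for 12 of the 14, against 53.4% of all probe sets with 1 gene. That share includes dim probe sets, and it was not taken for those with a mean of at least 11 alone. After quantile normalization, which gives every array the same distribution of values, ZxM replicate 3 was the highest array for 0 of the 14, ZxM replicate 2 the lowest for 4, and the SD was larger in ZxM for 9. Over all probe sets with 1 gene these shares were then 13.6%, 13.1% and 51.7%. The map of deviations by array shows these columns for the deposited values and their change after quantile normalization.

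**Figure D2:**
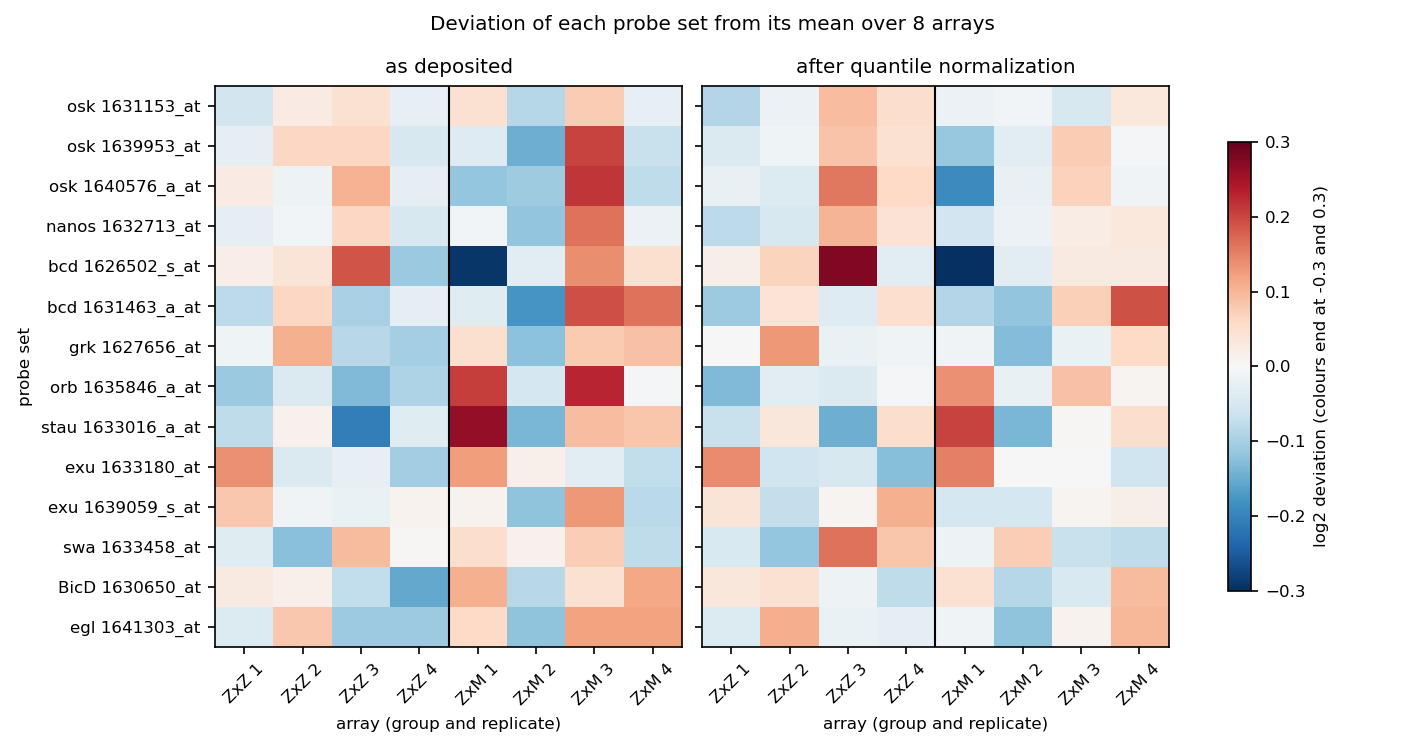
Log2 deviation of each probe set (rows) from its own mean over the 8 arrays (columns, 4 ZxZ arrays left of the line and 4 ZxM arrays right of it), for the deposited values and after quantile normalization, with red above and blue below the mean. The column of ZxM replicate 3 is red for most rows as deposited, where it is the highest array for 8 of 14 probe sets, and pale after quantile normalization, where it is the highest for 0.

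The differences depended on the scaling of the arrays. The upper quartile (75th percentile) of each array lay at 9.45 to 9.53 on the ZxZ arrays and at 9.54 to 9.63 on the ZxM arrays, so that ZxZ arrays were dimmer in their upper range, and the part of this shift in the differences was not tested apart from the alternatives given here. The median difference of all tested genes was -0.094 on the log2 scale as deposited, -0.135 after centring each array on its median, -0.013 after quantile normalization and -0.015 after cyclic loess. Relative to the median difference of the tested genes as deposited (-0.094), orb, stau, BicD and egl lay below. The other tested members, osk, bcd, grk, exu and swa, lay above. After quantile normalization orb differed by -0.127 (SE 0.0482, adjusted p = 0.479 from limma) and stau by -0.106 (SE 0.0693, adjusted p = 0.635 from limma), so that both kept a negative sign. Neither was called, and limma then called 0 of all 5991 tested genes. BicD and egl were then at -0.0192 and -0.0159, and grk and swa changed sign to 0.0252 and 0.07. The calls were also denser among genes of middle level: of the tested genes with a mean between 9 and 10, where stau, BicD and grk lie, 29.3% were lower in ZxZ, between 10 and 11, where bcd and egl lie, 32.3%, between 11 and 12, where orb and swa lie, 18.2%, and between 12 and 13, where osk lies, 4.57%.

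**Figure D3:**
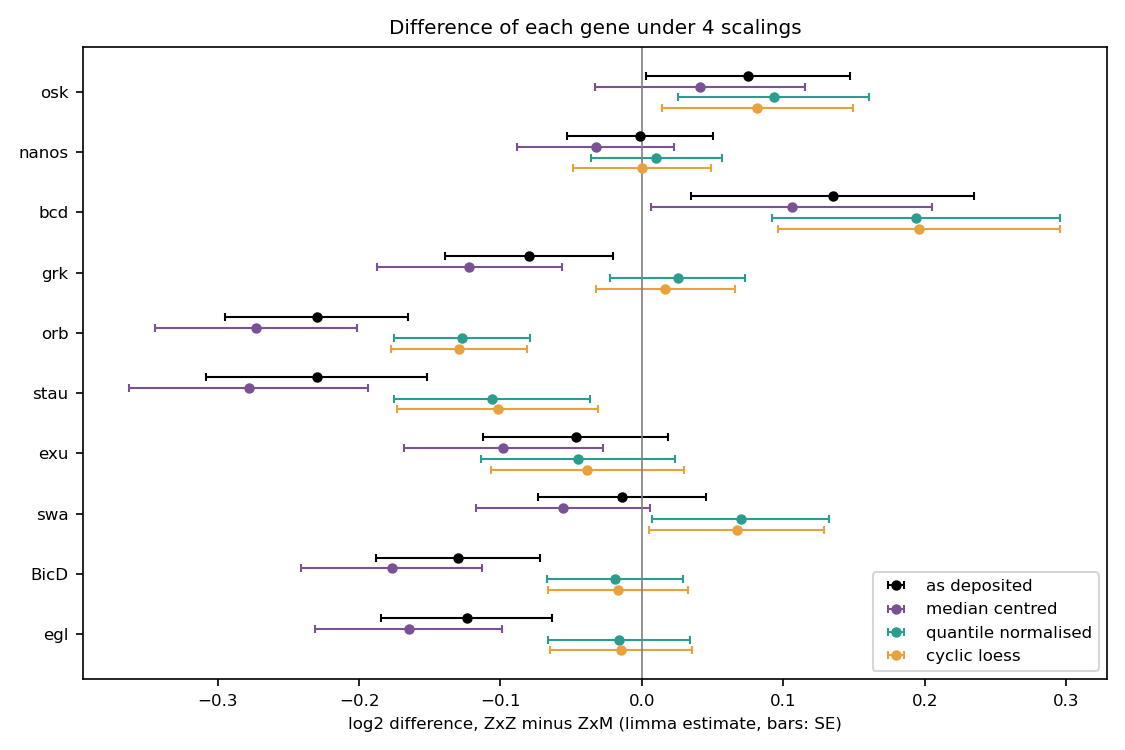
Log2 difference, ZxZ minus ZxM, of the 10 genes (rows) with its SE (bars), from limma on the deposited values, with arrays centred on their median, after quantile normalization and after cyclic loess. The points of orb and stau stay left of 0 at all 4 scalings, from -0.278 to -0.102, while those of grk and swa fall on both sides of 0.

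The partners of these genes in the ovary were listed by role, and 50 of the 63 listed genes had a probe set of their own. Of the 35 that passed the filter, 9 were lower in ZxZ (25.7%, against 17.6% of all tested genes), 0 were higher and 26 did not pass. Most of the 35 have means between 9 and 12. Of all tested genes, 29.3% were lower at means of 9 to 10, 32.3% at 10 to 11 and 18.2% at 11 to 12. The share of 25.7% lies within the range of these shares. The median differences of all tested genes in these bands were -0.126, -0.133 and -0.121. Over all 50, with no filter, 47 had a negative difference, against 62.5% of all genes, and the median was -0.103 (all genes -0.033). Without the filter limma called 0 of the 50 and 0 of all 11983 genes. Of the 50, 17 had an unadjusted p under 0.05, against 21.1% of all genes. After quantile normalization limma called 0 of the 35 and 0 of all 5991 tested genes. Of the 35, 3 had an unadjusted p under 0.05, against 9.75% of the tested genes.

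Among the 8 tested translational repressors and message-binding proteins, 2 were lower (25%, against 17.6% of all tested genes) and 6 did not pass. These were pum, the RNA-binding partner of Nanos in translational repression, at 10.75 ± 0.035 in ZxZ and 10.93 ± 0.0672 in ZxM (SD, n = 4 each), a log2 difference of -0.18 (SE 0.0474, adjusted p = 0.0866 from limma), and bsf, which binds bcd message, at -0.17 (SE 0.048, adjusted p = 0.0874 from limma). The repressor brat, which acts with Pum and Nanos, had -0.16 (adjusted p = 0.107 from limma). For pum and bsf every ZxZ array was below every ZxM array, which held for 12.1% of all tested genes (1.02% lay fully the other way). The arrays also separated in this way for wisp, msps and DCTN1-p150, described below. Pum was at 10.78, 10.72, 10.79 and 10.73 in ZxZ and 10.95, 10.86, 11.01 and 10.91 in ZxM.

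None of the 4 tested genes of polyadenylation and deadenylation passed the test. The smallest p was that of wisp, the cytoplasmic poly(A) polymerase that works with Orb in the oocyte, with -0.13 (SE 0.0481, adjusted p = 0.101 from limma), followed by hrg, the canonical poly(A) polymerase, with -0.12 and pAbp, a poly(A)-binding protein, with -0.12. Of the 2 tested genes of the exon junction complex, which osk message needs for its transport, tsu was lower at -0.15 (SE 0.0522, adjusted p = 0.0949 from limma), and btz had -0.10 (adjusted p = 0.204 from limma). After quantile normalization btz had the opposite sign.

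Of the 11 tested genes of motors and the cytoskeleton, 3 were lower (27.3%, against 17.6% of all tested genes) and 8 did not pass. These were msps, a microtubule-associated protein needed for bcd localization, at 10.99 ± 0.0327 in ZxZ and 11.19 ± 0.0986 in ZxM (SD, n = 4 each; difference -0.23, SE 0.0515, adjusted p = 0.0866 from limma), the dynein regulator nudE at -0.18 (SE 0.0571) and the dynactin subunit DCTN1-p150 at -0.15 (SE 0.048), both with an adjusted p of 0.0901 from limma. The dynein heavy chain Dhc64C was read by 3 probe sets that differed in sign. The most variable one, which stood for the gene, averaged 7.46 in ZxZ and 7.36 in ZxM, close to the median of the arrays, with a difference of 0.15 (adjusted p = 0.172 from limma). It was called higher in ZxZ without ZxZ replicate 1, ZxZ replicate 2 or ZxM replicate 4 (0.197, 0.187 and 0.188). In these runs 293, 181 and 352 of all 5991 tested genes were called higher. The brightest probe set was at 10.24, 10.21, 10.24 and 10.33 in ZxZ, against 10.4, 10.29, 10.5 and 10.47 in ZxM, and overlaps only through ZxZ replicate 4 and ZxM replicate 2. Where the probe set with the highest mean stood for each gene, Dhc64C was called lower in ZxZ, with a difference of -0.164 (SE 0.052, adjusted p = 0.0823 from limma). In that setting 1277 of all 5991 tested genes were called lower.

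The 5 tested genes of grk transport and signalling are too few to read a share from. Of these, 3 were lower (60%, against 17.6% of all tested genes) and 2 did not pass. They were enc, a gene required for grk message localization and translation, at -0.26 (SE 0.0885, adjusted p = 0.0936 from limma), otu, a germline gene, at -0.17 (SE 0.0525, adjusted p = 0.0901 from limma), and S (Star), which moves Egfr ligands out of the endoplasmic reticulum, at -0.17 (SE 0.0558, adjusted p = 0.0919 from limma). None of the 3 tested pole plasm genes passed, with csul at -0.12, gcl at -0.10 and aub at -0.02. Neither did the 2 tested ESCRT-II genes, whose complex binds bcd message, with lsn at -0.12 and Vps25 at -0.14.

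**Figure D4:**
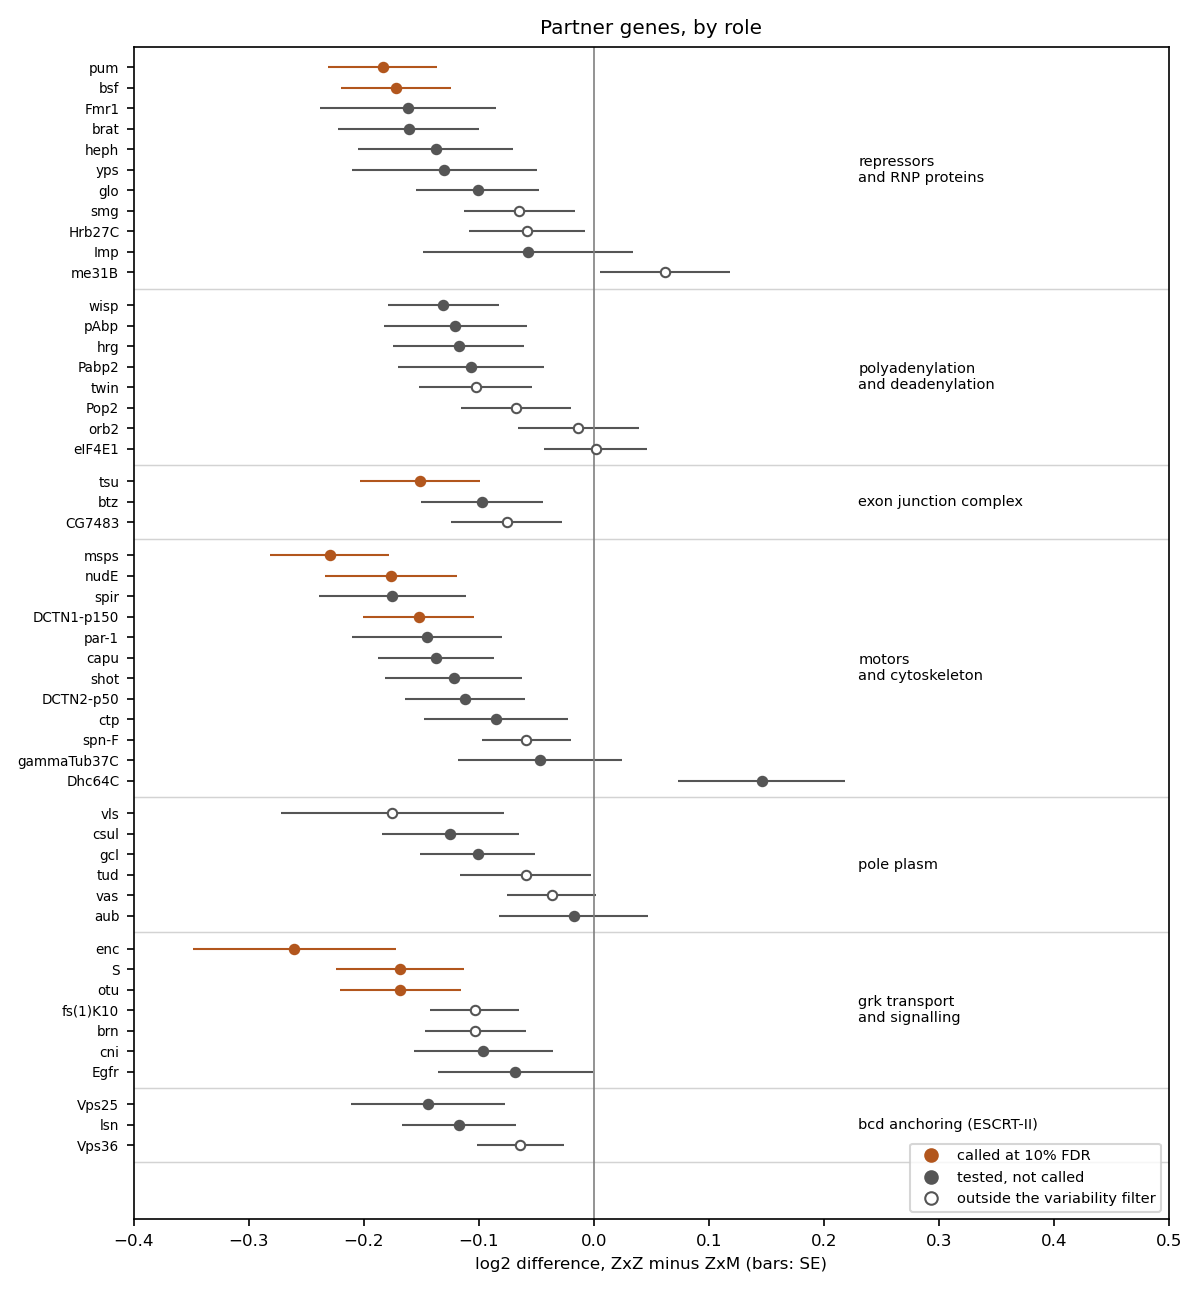
Log2 difference, ZxZ minus ZxM, with its SE (bars) for the 50 measured partner genes by role (horizontal axis, log2 units), from the fit of the tested genes or, for open points, from the fit with no filter. The 9 called genes, in colour, lie between -0.26 and -0.15, and 47 of the 50 points lie left of 0. Of all genes, 62.5% had a negative difference in the fit with no filter.

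Whole females hold many tissues, so fewer germline cells and less RNA per cell cannot be told apart. Of the germline markers, zpg, otu, ovo and aub had probe set means between 10.23 and 12.18 in the groups, and vas, at 7.37 in ZxZ and 7.42 in ZxM, was close to the median of the arrays. Of 3 tested germline markers only otu, also counted among the partners above, passed, lower in ZxZ. The summed level of the 5 ran from 13.47 to 13.56 in ZxZ and from 13.52 to 13.68 in ZxM (log2 of the sum). None of 12 tested eggshell markers of the follicle cells passed, and all 12 had negative differences, as had 62.5% of all genes. Their median difference with no filter was -0.225 (all genes -0.033). Their summed level was 16.14 to 16.82 in ZxZ and 16.49 to 17.01 in ZxM. None of the 2 tested markers each of neurons, muscle and fat body passed. Their lists had median differences of -0.025, 0.114 and 0.072 with no filter. Of 7 listed male accessory gland markers 2 were tested, and 1 (SP) was higher in ZxZ, as were 1.1% of all tested genes. SP averaged 6.74 in ZxZ and 6.6 in ZxM. Both means lie below the median of every array (7.23 to 7.31), where a low level cannot be told from no expression. The part of these tissues in the differences of orb, stau and their partners was not tested.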

How the data were processed

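The deposited values of 18952 probe sets were used as given. They are on the log2 scale of the authors' VSN calibration, with 1 RMA value a probe set on each array (R 2.8.1). VSN compresses differences between low values, so a fold of a dim gene is understated, and with no detection calls used here, low values cannot be told from no expression. Depth has no counterpart on arrays, and their number (4 a group) limits the precision. Samples were grouped by their titles.

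Probe sets with 1 gene in the platform annotation were named, with symbols updated by Entrez number against Release 6 plus ISO1 MT. Each gene was represented by its most variable probe set, and the upper 50% by interquartile range (above 0.0908) were tested as ZxZ minus ZxM with limma 3.58.1 in R 4.3.3 (array weights by REML, eBayes, two-sided, Benjamini-Hochberg, 10% FDR), after a check on simulated data. Single values also had an exact permutation test. Nothing says whether the 4 pools of a group share cultures, so p-values measure the spread between pools. Named partners are the called genes and up to 3 tested genes with the smallest p of each list; others named (Dhc64C) were chosen after their values were seen. The genes and lists were chosen with earlier results of these data known. Alternatives covered weights, filters, probe set choice, scaling, the replicate block, a Student's t-test with equal weights and no moderation, the prior, and each array left out.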

Additional observations from a re-analysis of the deposited data

Results flagged for a closer look

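In 4 of the 68 groups of 4 arrays examined (14 probe sets of the 10 genes and 20 partner genes, in ZxZ and ZxM), 1 array stood apart from the other three by Dixon's criterion. Chance gives about 1 in 20 groups, which is 3.4 of 68. The osk probe set that stood for the gene was at 12.98 on ZxM replicate 3, against 12.65 to 12.69 on the other ZxM arrays. The grk probe set was at 9.25 on ZxM replicate 2, against 9.42 to 9.46. The exon junction genes tsu and btz were at 11.46 on ZxZ replicate 3 (11.56 to 11.57 on the others) and at 9.94 on ZxZ replicate 1 (9.81 on each of the others).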

How the results depend on the processing

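limma called 2 of the 10 genes and 9 partner genes. The counts were 2 and 13 with the probe set of highest mean, 2 and 11 with the lowest 25% by mean left out, and 2 and 10 with a trended, robust prior. Of all genes tested, 1277 of 5991, 1322 of 5017 and 1089 of 5991 were called lower in these settings, against 1057 of 5991 in the main test. The counts of the 10 genes and the partner genes were 0 and 0 with equal array weights, with no filter on variability, over all probe sets with 1 gene, after quantile normalization (probe sets and tested genes chosen again or held), after cyclic loess, and with the Student's t-test. In these settings 0 of all genes tested were called, except 8 lower and 2 higher with the Student's t-test. Median centring of the arrays gave 4 and 26, with 2460 of all 5991 tested genes called lower and 40 higher. With the replicate number as a block the counts were also 0 and 0 (orb at -0.216), with 1 of all 5991 tested genes called. The study mated females with both kinds of male in each replicate, so the numbers may pair arrays. Deviations of same-numbered arrays correlated weakly (-0.23 to 0.16), but correlations of so few pairs cannot decide whether the numbers pair samples. Leaving out each array gave 0 to 4 of the 10 genes and 0 to 26 partner genes. The counts were 0 and 0 without ZxZ replicate 3 or 4 or ZxM replicate 1 or 3, where 0 of all 5991 tested genes were called. They were 4 with 19, 18, 21 and 26 partner genes without ZxZ replicate 1, ZxZ replicate 2, ZxM replicate 2 and ZxM replicate 4. Of all tested genes, 2284, 1828, 1903 and 2492 were then called lower and 293, 181, 219 and 352 higher. The members and partner genes called were lower in ZxZ except bcd (without ZxM replicate 4) and 1 partner gene, Dhc64C (without ZxZ replicate 1, ZxZ replicate 2 or ZxM replicate 4), which were higher. At an interquartile range of at least 0.5, 51 genes remained and none of these was among them, so no value was had. The direction turned for nanos (0.0115 and 0.0102 after quantile normalization chosen again and held, 0.000183 after loess), swa (0.0622, 0.07 and 0.067), btz (0.0275, 0.0254 and 0.0277) and aub (0.0751, 0.0705 and 0.0782), for grk held (0.0252) and after loess (0.0167), and for bcd and Dhc64C with their brightest probe sets (-0.0872 and -0.164). With arrays left out it turned for nanos (-0.0283 to 0.0364), bcd (-0.00234 to 0.26), exu (-0.115 to 0.0397), swa (-0.0749 to 0.0481) and aub (-0.0449 to 0.0497). The causes were not tested. Of 342 values of named genes under the alternatives, arrays left out aside, 230 kept direction and call, 82 lost the call, 14 gained one and 16 turned. Orb and stau stayed negative under every alternative that gave them a value.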
